A study of Mus musculus with 10 samples.

Results

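The comparison set 2 libraries of MC3T3-E1 cells, an established mouse line of pre-osteoblasts grown from newborn skull bone, against each other. Both libraries, A-5 and B-4, were labelled untreated, and the labels gave neither a culture time. They were 2 of 10 libraries in the series. The other 8 came from cells kept in standard medium with β-ecdysterone, a plant steroid related to insect moulting hormones, at 0, 100, 150 or 200 µM for 5 or 10 days, with 1 library for each dose and day. Among these 8, codes with the letter A were of day 5 and codes with the letter B of day 10. Whether the letters mean the same for A-5 and B-4 was not labelled. All 10 were labelled as strain C57BL/6, age newborn and cells of the third generation, and the source field called them bone marrow mesenchymal stem cells, which is not where this line comes from. The labels did not say how an untreated culture differed from a 0 µM culture, or that A-5 and B-4 were separate cultures, so culture time and differences in handling cannot be told apart here.

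Of 29583 genes and loci in the count table, 12387 had 50 or more counts in at least 1 of the 2 libraries and were compared. A-5 held 28772087 counts and B-4 held 29789271, and 19123 and 18959 genes had a count. Levels are given as CPM, the count relative to the scaled library size, and the fold change is the level in B-4 over that in A-5 on the log2 scale. With 1 library a side no test was possible, so a gene was called only by a difference of more than 2-fold, and the 95% intervals given are exact binomial intervals that cover counting error alone. For a gene without a count in 1 library, the level in the other is given over a floor of 3 counts. This floor was 0.0971 CPM in A-5 and 0.0989 CPM in B-4. In bulk RNA, fewer cells of a kind and less RNA per cell cannot be told apart.

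Osteoblasts build the collagen-rich matrix of bone, and in culture they divide first and differentiate later. Cells that divide need the enzymes of DNA copying in S phase and then the motors, kinases and cyclins of mitosis. Cholesterol synthesis is held in balance by Srebf2, a membrane-bound factor that is released when sterols run low. Interferon genes respond to Stat and Irf factors, and glucocorticoid targets respond to the steroid-bound receptor Nr3c1. The markers fixed for osteoblasts were all counted in both libraries, with sums of 13400 CPM in A-5 and 13800 CPM in B-4. Runx2, Col1a1, Col1a2, Sparc and Cdh11 carried most of this, while Alpl (18 and 105 counts) and Bglap (82 and 23 counts) were near the bottom. Macrophage markers summed to 1.39 and 0.593 CPM and endothelial markers to 0.712 and 0.66 CPM, with Csf1r, Tyrobp, C1qa and Cdh5 at 0 in both. Of the marrow stromal markers, Lepr had 20 and 32 counts and Ebf3 had 12 and 11 counts. Cxcl12 had 7885 and 5301 counts and Kitl 2556 and 7906. Of the chondrocyte markers, Sox9 had 1176 and 1986 counts and Col2a1 614 and 344, while Acan had 0 and 3 and Matn1 4 and 4. Adipocyte markers summed to 1.23 and 2.41 CPM, skeletal muscle markers to 0.194 and 3.3 CPM and epithelial markers to 1.81 and 0.627 CPM. Ckm, with 6 and 98 counts, gave most of the muscle sum.

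In all, 916 genes were over 2-fold higher in B-4, which was 7.39% of those compared, and 907 were over 2-fold lower, which was 7.32%. These shares are the background for every list below, though the lists were chosen with earlier results of these data known. The median log2 fold change over all genes was 0.03 and its SD was 0.93. On the deposited FPKM scale the split was 412 higher and 630 lower. More than 4-fold differences were 215 higher and 363 lower. At the 2-fold limit itself Zfp560 (181 and 357 counts) lay just above and was called, and Ecm2 (113 and 223 counts) lay just below and was not. Of the genes past 2-fold, 14 of the higher genes had no count in A-5 while 14 of the lower genes had none in B-4. The 2 untreated libraries stood further apart than any pair of libraries at 0 µM or any pair of treated libraries did. Their share of genes over 2-fold was 14.7% in all, against 1.44% between the 2 libraries at 0 µM and 1.12 to 3.95% between treated libraries of the same day and 4.04 to 6.06% between those of different days. A-5 differed over 2-fold from the 0 µM libraries at 5.6 to 7.05% of genes, and B-4 differed from them at 21.9 to 22.7%. Against the treated libraries both untreated libraries differed at similar shares, 15.9 to 18.8% for A-5 and 14.7 to 17.1% for B-4. Culture time was not labelled for A-5 and B-4, so these pairs are not matched in time.

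**Figure D1:**
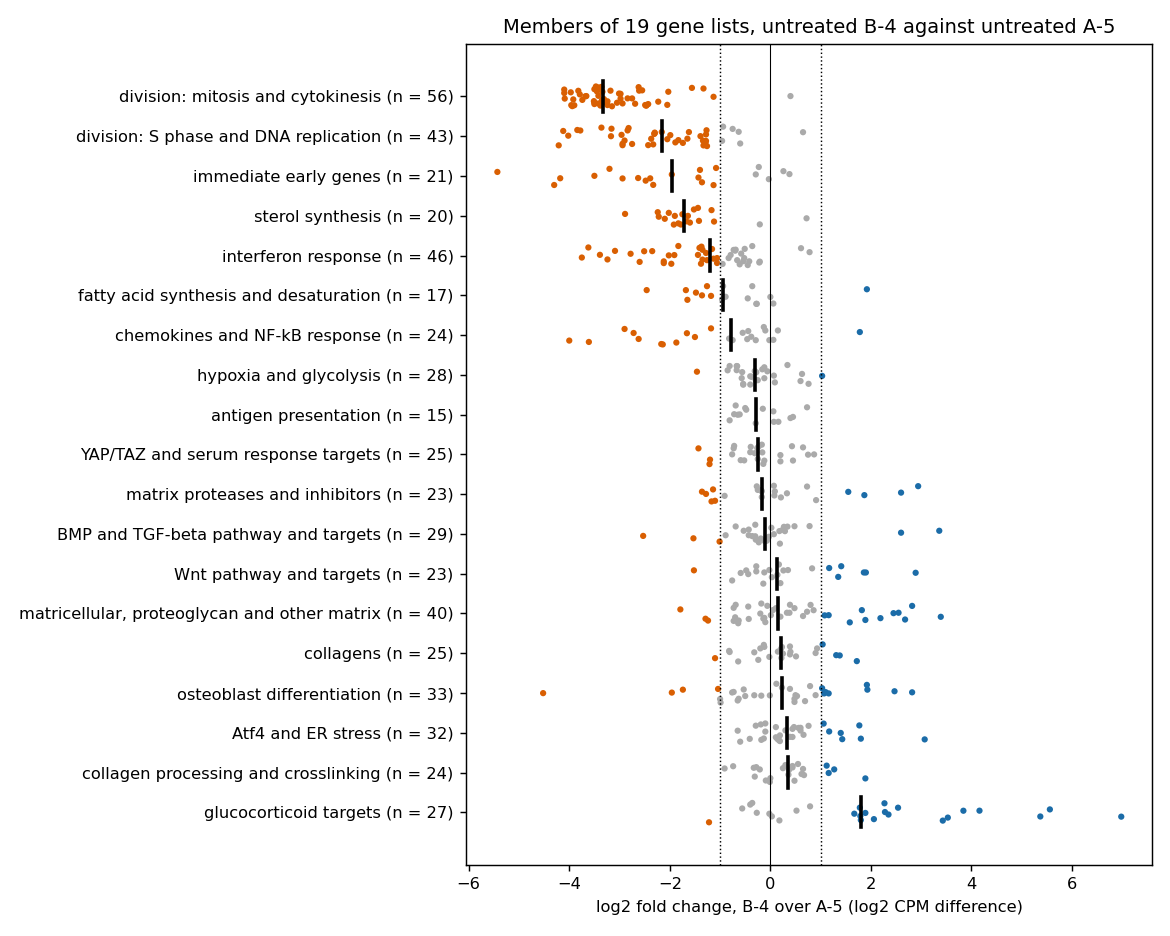
Log2 fold change of B-4 over A-5 (x axis) for each compared member of 19 gene lists (rows, n in brackets). Each point is 1 gene, orange below and blue above 2-fold (dotted lines), grey between, and the black bar is the list median, which runs from -3.32 for mitosis to 1.8 for glucocorticoid targets.

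The mitosis and cytokinesis list was the most uniform. Of 56 mitosis and cytokinesis genes, 55 were over 2-fold lower in B-4 and 0 higher, with a median log2 fold change of -3.32, and 37 of 43 S phase and replication genes were lower with a median of -2.16. The KEGG sets of the deposited annotation differed less. KEGG Cell cycle had 35 of 123 genes lower and 5 higher, with a median of -0.3. KEGG DNA replication had 22 of 39 lower and 0 higher, with a median of -1.28. B-4 had the lowest level of all 10 libraries for 55 of the mitosis genes and lay below the other 8 for 40 of the S phase genes, against 23.3% of all genes compared. Summed over the mitosis list, the level was 4760 CPM in A-5 and 641 CPM in B-4. It was 6980 and 7640 CPM at 0 µM on days 5 and 10 and 2140 to 4110 CPM in the 6 treated libraries. A-5 stood below the 0 µM pair and above the treated libraries, and B-4 stood apart from all of them. The list median differed by 0.10 between the 2 libraries at 0 µM and by -0.15 to 0.65 between treated libraries of the same day.

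Mki67, whose protein marks cycling cells, was at 548 CPM in A-5 and 35.1 CPM in B-4, 15.6-fold lower (95% interval 14.7 to 16.6). The 0 µM libraries held 752 and 883 CPM of it and the treated ones 176 CPM at the lowest, 266 at the median and 423 at the highest. Top2a, the topoisomerase that untangles replicated DNA, was at 295 and 21.3 CPM, a 13.8-fold difference (12.8 to 15). Ccnb1, the cyclin that drives entry into mitosis, was at 58.4 and 5.31 CPM. The S and G2 cyclin Ccna2 had 154 and 8.90 CPM, and the kinases Melk, Bub1 and Aurkb had log2 fold changes of -4.10, -4.09 and -3.97. In each of these genes B-4 was below every other library. The 1 exception on the list was Pttg1, known as securin, at 14.9 and 19.6 CPM.

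Among the S phase genes, the replication licensing factor Cdc6 differed most, with 498 counts in A-5 and 25 in B-4, a 19.6-fold difference (13.1 to 30.5). Mcm5, a subunit of the replicative helicase, was at 107 and 7.45 CPM, and Mcm10, Clspn and E2f8 had log2 fold changes of -3.78, -4.02 and -4.12. Pcna, the sliding clamp of DNA polymerase that repair uses as well, differed less, at 176 and 72.3 CPM. Rrm1, the large subunit of ribonucleotide reductase, was the 1 member with a higher level in B-4, at 184 and 289 CPM. Both libraries lay below the other 8 for it, which held 304 to 428 CPM. Pclaf, a clamp-binding protein made in S phase, was among the 10 genes with the largest drop of all, at 67.0 and 1.78 CPM, though the annotation has Trip4 overlapping it on the other strand. Of 21 genes of cell cycle entry and arrest compared, 4 were lower and 0 higher, with a median of -0.35. Ccnd1, the growth factor-driven G1 cyclin, was at 943 and 337 CPM, highest of all libraries in A-5 and lowest of all in B-4, and the inhibitor Cdkn1a was at 273 and 329 CPM.

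The mitosis genes shared a sequence feature that had no part in choosing them. In the 300 bases around the start of each gene in RefSeq (250 before and 50 after the start, GRCm38.p6), 31 of 44 mitosis genes with such a window held TTTGAA on either strand, the core of the cell cycle homology region. That was 70.5%, against 20.2% of all 27025 genes and 18.9% of S phase genes. The E2F core TTCCCGC was held by 15 of 37 S phase genes (40.5%), 5.29% of all genes and 1 mitosis gene (2.27%). CCAAT was held by 32 of 44 mitosis genes (72.7%), 20 of 37 S phase genes (54.1%) and 41.1% of all genes. A match is a description of the letters and shows no binding. The stretches before the start of Top2a (minus strand, chr11:99024197-99024426) and Cdc6 (plus strand, chr11:98908003-98908029) are shown because they carry the feature for both parts of the programme. The start is that of RefSeq, and in GENCODE Cdc6 begins at 98907801, upstream of the stretch shown. Capitals mark TTTGAA and CCAAT in Top2a and the E2F core in Cdc6, on either strand.
Top2a: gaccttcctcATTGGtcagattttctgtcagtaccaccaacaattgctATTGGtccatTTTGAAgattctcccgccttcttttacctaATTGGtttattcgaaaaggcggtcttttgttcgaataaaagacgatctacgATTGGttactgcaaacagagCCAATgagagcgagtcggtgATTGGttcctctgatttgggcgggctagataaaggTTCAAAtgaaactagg
Cdc6: ccggtggagaGCGGGAAatcgcctggg

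Immediate early genes, which growth factors switch on within minutes, were lower in B-4 too. Of 21 compared, 16 were over 2-fold lower in B-4 and 0 higher, with a median of -1.96. Egr1 was at 504 CPM in A-5 and 11.7 CPM in B-4, a 43.2-fold difference (38.8 to 48.1) and among the 10 largest in that direction over all genes. The 0 µM libraries held 381 and 372 CPM of Egr1, and the treated ones 20.7, 29.7 and 59.8 CPM at the lowest, median and highest. Fos had 61.4 and 3.07 CPM and Egr2 53.5 and 2.90 CPM. A-5 lay above every treated library for 14 of the 16 lower genes, while B-4 lay within the treated range for 6, above it for 2 and below it for 8. Summed levels were 1750 CPM in A-5, 1750 and 1710 CPM at 0 µM, 442 to 684 CPM in treated cells and 466 CPM in B-4. The chemokine and NF-kB list had 11 of 24 genes lower and 1 higher, with a median of -0.78. Saa3, an acute-phase protein, was at 67.3 and 4.15 CPM, and the monocyte attractant Ccl2 at 14.1 and 1.85 CPM. The higher gene was Lcn2, an iron-siderophore carrier, at 33.3 and 114 CPM.

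**Figure D2:**
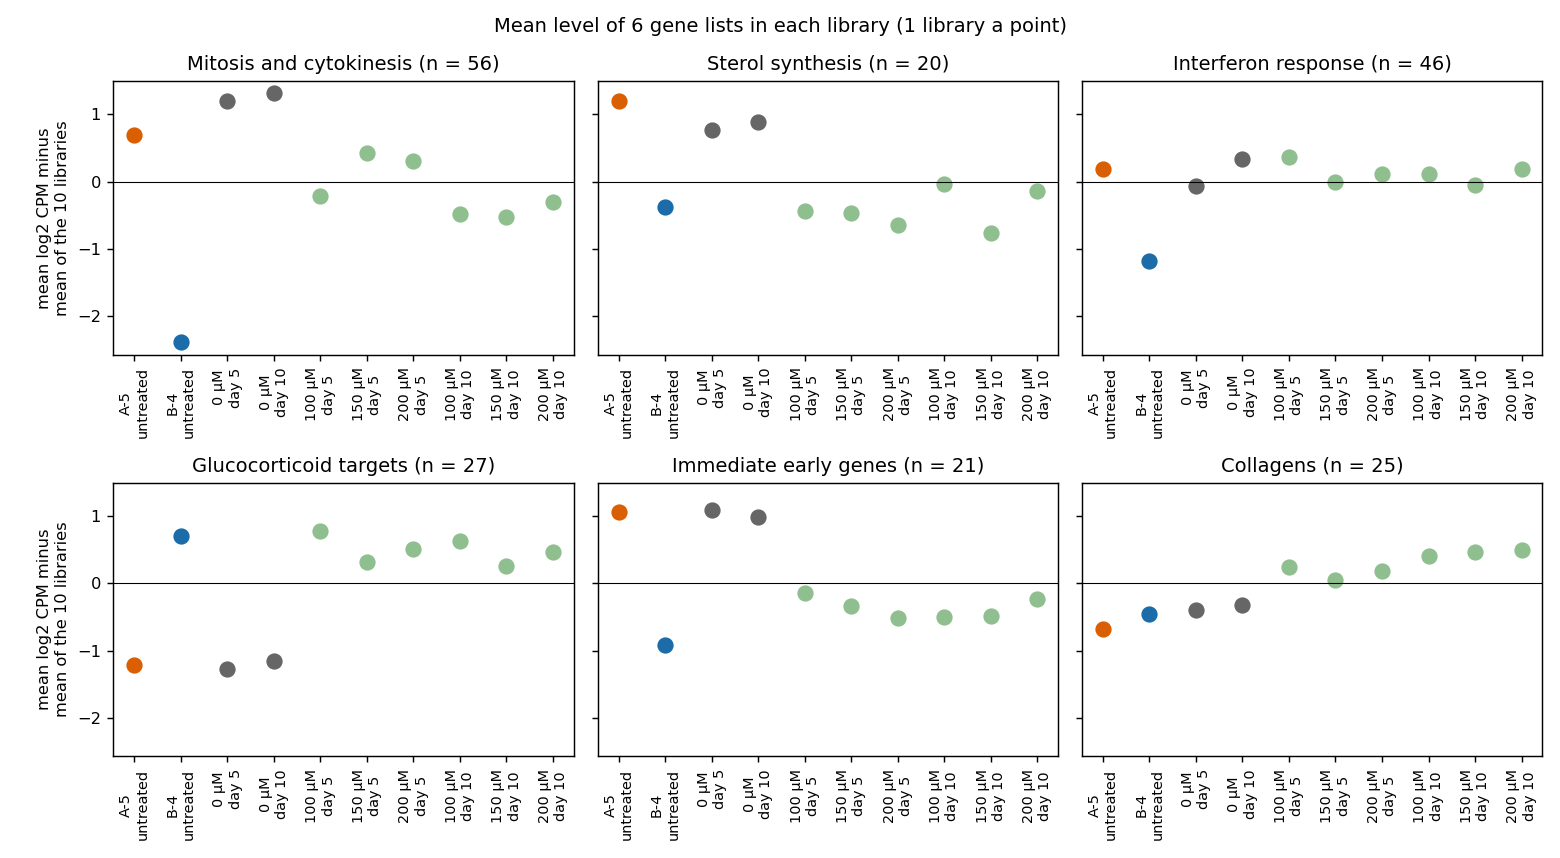
Mean log2 CPM of 6 gene lists in each of the 10 libraries (x axis), given as the difference from the mean of the 10 (y axis). A-5 is orange, B-4 blue, 0 µM grey and treated green, with 1 library a point. B-4 is the lowest point for mitosis (-2.39), interferon (-1.18) and immediate early genes (-0.92), and A-5 the highest for sterol synthesis (1.2).

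The sterol enzymes separated the libraries from the other end of the scale. Of 20 genes of cholesterol synthesis, 18 were over 2-fold lower in B-4 and 0 higher, with a median log2 fold change of -1.71. Here it was A-5 that stood out. It lay above the other 8 libraries for 18 of the 20, against 19.8% of all genes compared, whereas B-4 lay within their range for 18. Summed levels were 3040 CPM in A-5, 2320 and 2500 CPM at 0 µM, 964 CPM in B-4 and 699 to 1180 CPM in treated cells. For the 18 lower genes, B-4 was within the treated range in 15, above it in 1 and below it in 2. The median of the list differed by 0.12 between the 0 µM libraries and by -0.82 to 0.61 between treated libraries of the same day.

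Idi1, which makes the isoprene unit that prenyl chains grow from, was at 143 CPM in A-5 and 19.3 CPM in B-4, a 7.42-fold difference (6.80 to 8.10). It was at 104 and 102 CPM at 0 µM and at 13.1, 23.6 and 28.1 CPM in treated cells. Fdps, the farnesyl pyrophosphate synthase, was at 282 and 59.5 CPM. Mvd and Lss had log2 fold changes of -2.10 and -2.02. Hmgcs1, the synthase of an early step, was at 237 and 74.6 CPM, and the squalene epoxidase Sqle at 363 and 136 CPM. B-4 lay within the Hmgcs1 levels of treated cells, which had 53.8, 70.8 and 110 CPM. Tm7sf2 was lower by less than 2-fold (69.7 and 60.1 CPM), and Ebp was the 1 enzyme with a higher level in B-4 (27.6 and 45.4 CPM).

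Genes that sense and move sterols were less uniform, with 6 of 18 lower, 1 higher and a median of -0.17. Insig1, which retains the Srebf2 complex in the endoplasmic reticulum, was at 232 and 42.2 CPM, the sterol carrier Stard4 at 127 and 22.3 CPM, and the receptor Lrp8 at 58.8 and 12 CPM. Srebf2 itself differed by less than 2-fold, 434 and 259 CPM. Abca1, the pump that exports cholesterol, went the other way, at 4.53 and 16.7 CPM, with 1.36 and 1.08 CPM at 0 µM and 18.6 to 36.1 CPM in treated cells. In fatty acid synthesis 7 of 17 genes were lower and 1 higher, with a median of -0.94. The desaturase Fads2 was at 132 and 23.9 CPM and the elongase Elovl6 at 156 and 48.6 CPM, while Acacb was higher at 1.39 and 5.41 CPM. The core of the sterol regulatory element, searched as TCAC, any base and CCAC on both strands, was found in the window of Hmgcs1 and in no other of 15 sterol enzymes with a window (6.67%), and in 1.44% of all genes. CCAAT was found in 14 of the 15 (93.3%), against 41.1% of all genes. The stretch of Hmgcs1 (chr13:119690204-119690232, plus strand) is shown with its element in capitals.
Hmgcs1: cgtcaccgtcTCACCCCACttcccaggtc

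The interferon genes were lower in B-4 as well. Of 46 compared, 27 were over 2-fold lower and 0 higher, with a median log2 fold change of -1.21, against 7.32% of all genes lower. B-4 lay below the other 8 libraries for 37 of them, against 23.3% of all genes. The list median differed by 0.37 between the 2 libraries at 0 µM and by -0.32 to 0.21 between treated libraries of the same day. Summed levels were 1630 CPM in A-5, 1000 CPM in B-4, 1440 and 1840 CPM at 0 µM and 1510 to 1890 CPM in treated cells.

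Ifit1, which binds viral RNA lacking a host cap, was at 29.0 CPM in A-5 and 4.19 CPM in B-4, a 6.93-fold difference (5.75 to 8.42). The 0 µM libraries had 21.1 and 37.0 CPM of it and the treated ones 12.4, 15.3 and 24.8 CPM. Its relatives Ifit3 and Ifit3b had 668 against 61 counts and 268 against 20 counts, and reads may be shared between these near copies. Isg15, a ubiquitin-like modifier, was at 13.7 and 3.33 CPM. Low genes of the list differed as well, with 102 and 6 counts of the chemokine Cxcl10, 71 and 6 of Oas3 and 64 and 6 of Cmpk2. Irf7, which amplifies the response, was at 12.7 and 4.85 CPM. The members that were higher by less than 2-fold in B-4 were Ifi35 and Ifi27, at 33.5 and 51.2 CPM and at 34.9 and 60.2 CPM. Of 15 antigen presentation genes 0 were over 2-fold either way, with a median of -0.29.

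The interferon-stimulated response element was held by the windows of 19 of 36 interferon genes (52.8%) and of 3.99% of all genes. It was searched as GAAA, any 2 bases and GAAA on both strands, and matches may overlap. The stretches of Ifit1 (chr19:34640775-34640823, plus strand) and Isg15 (chr4:156200865-156200906, minus strand) are shown because each holds more than 1 match, with the elements in capitals.
Ifit1: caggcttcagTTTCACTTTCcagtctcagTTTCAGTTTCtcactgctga
Isg15: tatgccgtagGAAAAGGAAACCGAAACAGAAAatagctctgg

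**Figure D3:**
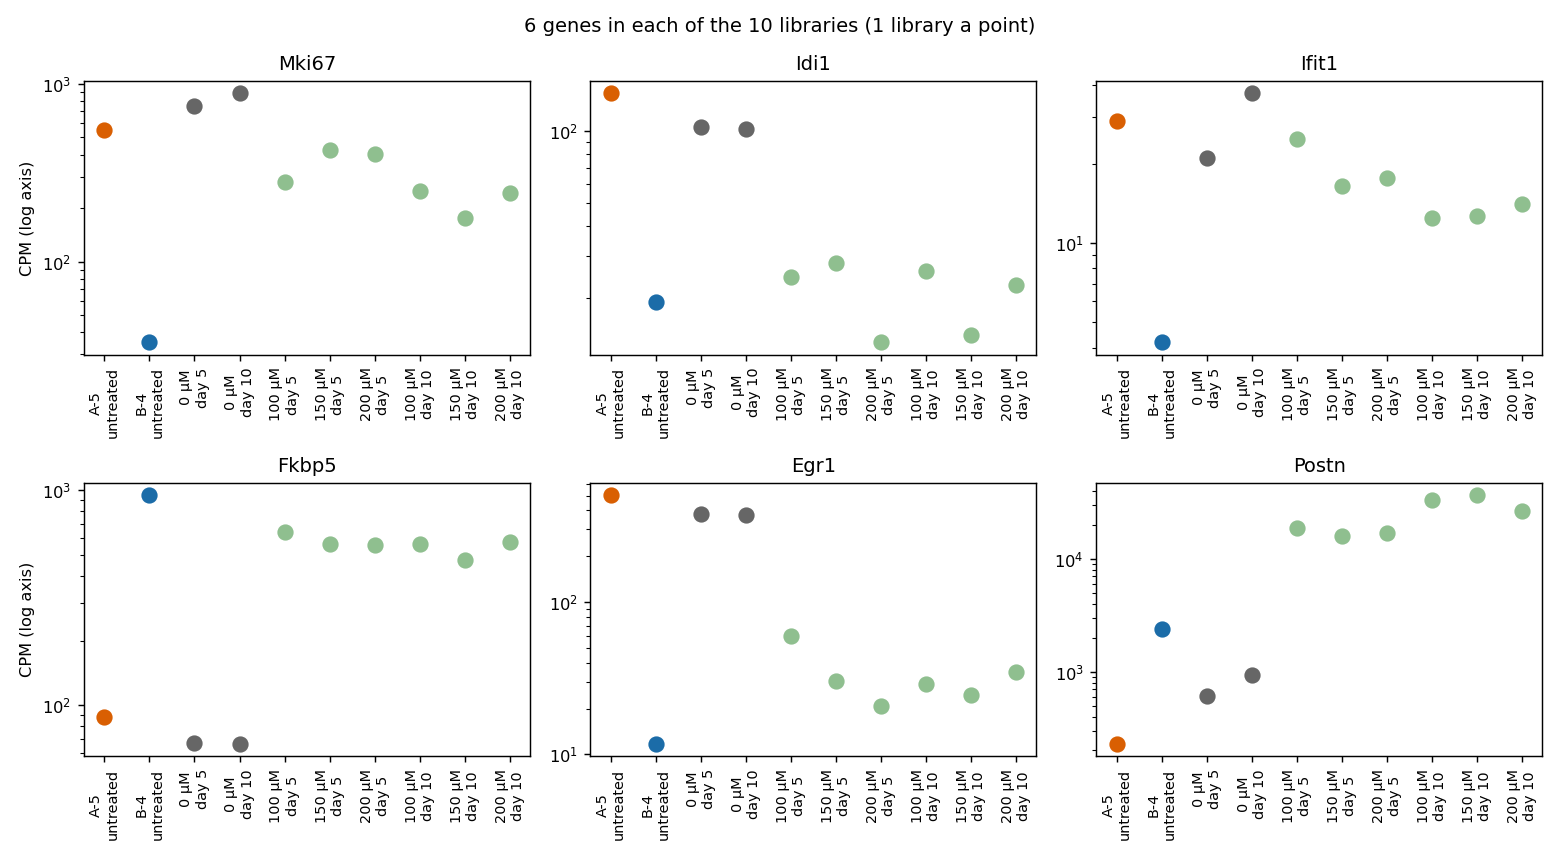
CPM on a log axis (y axis) of 6 genes in each of the 10 libraries (x axis), 1 library a point, with A-5 orange, B-4 blue, 0 µM grey and treated green. B-4 is the lowest point for Mki67 (35.1), Ifit1 (4.19) and Egr1 (11.7) and the highest for Fkbp5 (949), and Postn at 2390 CPM in B-4 lies between the 0 µM and the treated libraries.

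Glucocorticoid targets were mostly higher in B-4. Of 27 compared, 17 were over 2-fold higher and 1 was lower, with a median log2 fold change of 1.8, against 7.39% and 7.32% of all genes. Summed levels were 2140 CPM in A-5 and 8240 CPM in B-4, with 2810 and 3380 CPM at 0 µM and 5550 to 8860 CPM in treated cells. Lox, which the collagen processing list also holds, gave 379 and 1400 CPM of the sums in A-5 and B-4. It gave 950 and 1490 CPM of those at 0 µM and 1000 to 2340 CPM in treated cells. For the 18 genes over 2-fold either way, B-4 lay within the treated range in 7, above it in 7 and below it in 4. A-5 lay below the lowest treated library in 17 of these. The list median differed by 0.08 between the 0 µM libraries and by -0.32 to 0.16 between treated libraries of the same day.

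Fkbp5, a chaperone that restrains the receptor in return, was at 88.3 CPM in A-5 and 949 CPM in B-4, 10.7-fold higher (10.3 to 11.2). It was at 66.5 and 66.0 CPM at 0 µM and at 474, 563 and 641 CPM in treated cells. B-4 was thus the highest library for it. Tsc22d3, the leucine zipper protein known as GILZ, was at 110 and 1260 CPM, with 82.9 and 111 CPM at 0 µM and 1120 to 1390 CPM in treated cells. The sulfotransferase Sult1a1 had 13 and 1806 counts, a 142-fold difference (82.6 to 266), and Sgf29 overlaps it on the other strand. Mertk, a receptor for dying cells, was at 13.1 and 235 CPM, below the 367 to 548 CPM of treated cells. Zbtb16 had 4 and 77 counts. Hif3a had 0 and 71 counts, 24.1-fold above the floor of 3 counts, and the lower 95% limit of its ratio was 19.1. Treated cells held 13.6 to 27.4 CPM of it against 2.34 CPM in B-4. Fam107a, a stress-responsive actin-binding protein, had 4 and 225 counts and was at no more than 0.759 CPM in any treated library. The receptor Nr3c1 was at 165 and 129 CPM. Tgm2, a transglutaminase, was the 1 lower gene, at 141 and 60.6 CPM. Dusp1, a member at 48.1 and 54.4 CPM, is overlapped on the other strand by the pseudogene Gm8225, among the 10 genes most above A-5 with 5 and 1101 counts, and how reads were split between them is unknown.

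Matrix genes separated the libraries gene by gene. Of 25 collagens, 4 (16.0%) were over 2-fold higher in B-4 and 1 (4.0%) lower, with a median of 0.22. The shares of all genes were 7.39% and 7.32%. The chains of type I collagen, the main collagen of bone, were slightly lower in B-4, with Col1a1 at 4150 and 3330 CPM and Col1a2 at 7340 and 6720 CPM. Col3a1 was 1.91-fold higher (1.87 to 1.95), just short of the limit, at 419 and 801 CPM. For all 3 of these, both libraries lay below the other 8, which held at least 6110, 9230 and 888 CPM. Over the list A-5 lay below the others for 16 genes and B-4 for 14, against 18.3% and 23.3% of all genes. The collagens past 2-fold higher were Col11a2, Col15a1, Col27a1 and Col4a1, and Col5a3 was lower at 100 and 46.6 CPM. The basement membrane chain Col4a1 was at 351 and 720 CPM and the cartilage chain Col11a2 at 2.88 and 9.63 CPM.

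Collagen processing had 4 of 24 genes (16.7%) higher and 0 lower, with a median of 0.36, against 7.39% and 7.32% of all genes. Lox, which cross-links collagen and elastin, was at 379 and 1400 CPM, and both 0 µM libraries (950 and 1490 CPM) were nearer to B-4. Plod2, the lysyl hydroxylase of bone cross-links, was at 107 and 258 CPM, and Sparc and P3h4 had log2 fold changes of 1.16 and 1.12. Of 40 matricellular, proteoglycan and other matrix genes, 11 (27.5%) were higher and 3 (7.5%) lower, with a median of 0.15. Postn, a matricellular protein of the periosteum, was at 228 and 2390 CPM, a 10.5-fold difference (10.2 to 10.7), yet treated cells held 16100, 22700 and 36700 CPM. Osteomodulin (Omd) was at 14.0 and 99.0 CPM, above the 17.8 to 82.6 CPM of treated cells. Tenascin C (Tnc) was at 3.30 and 21.5 CPM, below every other library in both. Fmod, which binds collagen fibrils, was at 85.6 and 502 CPM, and Mgp, an inhibitor of calcification, at 411 and 2250 CPM. Fibronectin (Fn1) was at 10700 and 19300 CPM and Dcn at 19.8 and 18.9 CPM. The lower genes were Has2, Ecm1 and Lum. Among proteases and inhibitors 4 of 23 (17.4%) were higher and 5 (21.7%) lower. Mmp13, the collagenase of bone, was at 78.0 and 600 CPM, and Mmp16 was lower at 93.9 and 36.6 CPM.

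Osteoblast genes were divided. Of 33 compared, 8 (24.2%) were higher in B-4 and 5 (15.2%) lower, with a median of 0.23. The shares of all genes were 7.39% and 7.32%. Runx2, the master regulator of the lineage, was at 112 and 193 CPM, with 91.4 and 86.1 CPM at 0 µM and 194 to 265 CPM in treated cells. Sp7 (osterix), which acts after it, was at 9.55 and 10.4 CPM (1.08-fold, 95% interval 0.922 to 1.28). Alpl, the phosphatase of mineralizing cells, was at 0.582 and 3.46 CPM and the bone sialoprotein Ibsp at 2.33 and 9.0 CPM, and treated cells held 16.3 to 65.8 and 73.9 to 819 CPM of them. Dmp1, a matrix protein of osteocytes, went the other way with 338 and 13 counts, a 25.5-fold difference (14.7 to 48.4), and Bglap (osteocalcin) had 82 and 23 counts. Osteopontin (Spp1) was at 3150 and 1890 CPM, above the other 8 in both libraries. In the Wnt list 6 of 23 genes (26.1%) were higher and 1 (4.35%) lower. Axin2, the feedback inhibitor of the canonical pathway, was at 1.46 and 11.1 CPM, Lef1 at 0.841 and 3.2 CPM and the co-receptor Lrp5 at 226 and 845 CPM. Treated cells held 42.5 to 71.3 CPM of Axin2. In the BMP and TGF-beta list 2 of 29 (6.9%) were higher and 3 (10.3%) lower, near the shares of all genes. Among its members the BMP antagonist Grem1 was at 68.9 and 11.9 CPM and the endothelial-type BMP target Tmem100 had 12 and 135 counts.

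The remaining lists are read against the 7.39% of all genes higher, the 7.32% lower and the all-gene median of 0.03. Of 151 ribosome genes in the deposited KEGG annotation, 14 were higher and 1 lower, with a median of 0.43, and B-4 lay above the other 8 libraries for 81, against 27.2% of all genes. KEGG oxidative phosphorylation had 5 of 122 higher and 0 lower, with a median of 0.21. B-4 lay above the other 8 for 79 of these and A-5 for 50, against 27.2% and 19.8% of all genes. The lysosome list had 1 of 25 higher and 1 lower, no more than the background, with a median of 0.24. B-4 lay above the other 8 for 14 of these 25 and A-5 for 10. The lysosomal protease Ctsb was at 916 and 2110 CPM, while the melanosomal and lysosomal protein Gpnmb was lower at 289 and 105 CPM. Of 32 Atf4 and endoplasmic reticulum stress genes 7 were higher and 0 lower. Trib3, a pseudokinase induced by Atf4, was at 13.8 and 47.0 CPM, Ddit4, which damps mTOR, at 168 and 582 CPM and Vldlr at 4.27 and 36.4 CPM. The Nrf2 list had 2 of 22 lower, near the background, and a median of -0.43, with the quinone reductase Nqo1 at 136 and 60.5 CPM. The 13 genes of mitochondrial DNA had 0 over 2-fold either way and a median of 0.05, close to that of all genes. Aldh1a1, which makes retinoic acid, was at 4.27 and 176 CPM, a 41.1-fold difference (34.6 to 49.3), with 3.82 and 3.90 CPM at 0 µM and 173 to 231 CPM in treated cells. The Ahr receptor was lower at 54.6 and 9.53 CPM.

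The largest differences of all lay in genes with few or no counts on 1 side. Sash3, an adaptor of lymphocytes, had 0 counts in A-5 and 489 in B-4, 166-fold above the floor of 3 counts. The lower 95% limit of its ratio was 135. It had 8 and 0 counts at 0 µM and 453 to 1220 in treated cells. The channel Nalcn had 0 and 124 counts, Crispld2 9 and 650 counts and the dipeptidase Dpep1 17 and 1019 counts. Crispld2 and Dpep1 were at 7.58 to 21 CPM and 24.9 to 160 CPM in treated cells, against 21.4 and 33.6 CPM in B-4, and the annotation has Gm20388 overlapping both. The kallikrein Klk1b24 had 11 and 1198 counts, or 39.5 CPM in B-4 and at most 4.92 CPM in any treated library, and its near-identical relatives may share reads. Mef2b, Gm20521 and Rdh9 were also among the 10 genes furthest above A-5, each overlapping another gene in the annotation, so that their counts are uncertain. At the other end Serpina3g had 83 and 0 counts and the cleavage-stage genes Zscan4c, Zscan4f and Zscan4-ps2 had 78, 54 and 66 counts against 0 each, in a family of near copies. Gm49510, Fsbp, Rdh16f1 and Gm44503 were also at 0 in B-4 and overlap other genes.

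New loci, the 7547 rows of the table without an Ensembl ID, gave 916 of the genes compared. Of these, 251 (27.4%) were over 2-fold higher in B-4 and 92 (10.0%) lower, against 5.8% and 7.1% of Ensembl genes. They took 2.18% of counts in A-5 and 2.71% in B-4, with 1.61 to 2.45% in the others. Longer transcripts were slightly lower in B-4, with medians of 0.18, 0.05, -0.02 and -0.12 over Ensembl genes split into 4 equal parts, shortest to longest, by length of the longest transcript. The medians by GC content stayed between -0.03 and 0.07. Whether transcript length had a part in the list medians was not tested.

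The difference between B-4 and A-5 was also set beside that between treated and 0 µM cells, which uses none of the same libraries. This comparison was added after the values were seen. Over 12312 genes the log2 fold change of B-4 over A-5 and the mean of the 6 treated minus the mean of the 2 at 0 µM had a Pearson r of 0.68 and a Spearman rho of 0.63, across genes, which are not independent and share transcript length and annotation. Of 873 genes over 2-fold higher in B-4, 479 (54.9%) were also over 2-fold higher in treated cells, which was 52.1% of the 920 such genes, while 7 were over 2-fold lower there. Of 889 lower genes, 509 (57.3%) were lower in treated cells, 67.8% of the 751 such genes, and 30 were higher. In all genes 7.47% were higher and 6.1% lower in treated cells. The lists did not all keep to this line. Medians in B-4 over A-5 and in treated over 0 µM were -3.32 and -1.42 for mitosis, -1.71 and -1.35 for sterol synthesis, -1.96 and -1.55 for immediate early genes and 1.79 and 0.79 for glucocorticoid targets. For interferon genes they were -1.21 and 0.11, for ribosome genes 0.43 and -0.06, and for hypoxia and glycolysis -0.3 and -1.09.

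**Figure D4:**
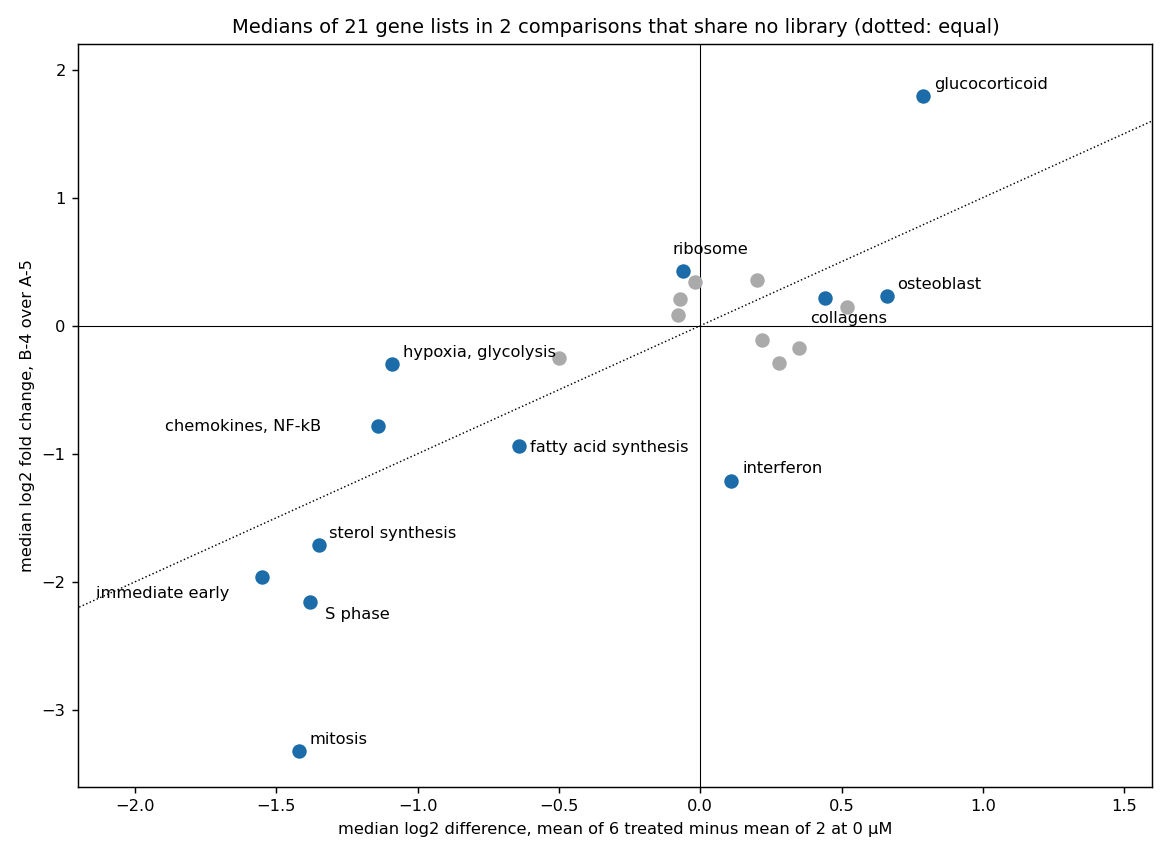
Median log2 difference of 21 gene lists in treated against 0 µM cells (x axis, mean of 6 libraries minus mean of 2) and in B-4 against A-5 (y axis, 1 library each). Each point is a list, blue where named, and the dotted line marks equal values. Mitosis, S phase, sterol and immediate early lists lie low on both axes, and the interferon list lies at 0.11 on the x axis and -1.21 on the y axis.

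Some genes set both untreated libraries apart from the other 8, and were chosen for that. Over 13962 genes with 50 or more counts in any library, 85 (0.609%) were more than 2-fold below the lowest of the other 8 in both and 14 (0.1%) more than 2-fold above the highest in both. In 79 of these 99 the 2 untreated libraries lay within 2-fold of each other. Of all genes compared 85.3% did so, but the 2 sets differ. Many of the 99 had under 50 counts in both untreated libraries and were not among the genes compared. Those with 0 counts in both lie within 2-fold by construction. The basement membrane linker Nid1 had 12 counts in A-5 and 9 in B-4, with 795 and 1140 at 0 µM and at least 395 in treated cells. Fhl1, a LIM protein of muscle and fibroblasts, had 10 and 15 counts against at least 112, and Mbnl3, a splicing factor, had 0 and 0 counts. Fbn2, a microfibril protein, was at 21.2 and 19.8 CPM against 104 and 141 CPM at 0 µM and 356 to 413 CPM in treated cells. Bmp4 had 13 and 29 counts, Thy1 4 and 7 counts and the transcription factor Cebpb 232 and 478 counts, of which Bmp4 and Cebpb also differed by over 2-fold between the 2. Above the other 8 in both was Hopx, a homeodomain-only protein, with 3724 and 3218 counts.

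By chromosome, medians of B-4 over A-5 lay between -0.05 and 0.10 on the autosomes and the X. On chromosome 11 the 931 genes compared had a median of 0.03 between the 2, but both were lower there than the other libraries. A-5 over the 0 µM libraries gave -0.23 to -0.22 and over the treated libraries -0.2 to -0.18. B-4 gave -0.18 to -0.16 and -0.19 to -0.13, whereas pairs among the other 8 stayed within -0.05 and 0.05. Taken in steps of 10 Mb with at least 20 genes, 9 of 11 steps on this chromosome had a median of the untreated pair more than 0.1 below the other 8, against 20 of 193 elsewhere. The lowest single steps lay elsewhere, at -0.48 on the X from 30000001 to 40000000 and -0.43 on chromosome 9 from 20000001 to 30000000 (GRCm38), against -0.32 at the lowest on chromosome 11. Top2a, Cdc6, Aurkb and Col1a1 lie on this chromosome.

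**Figure D5:**
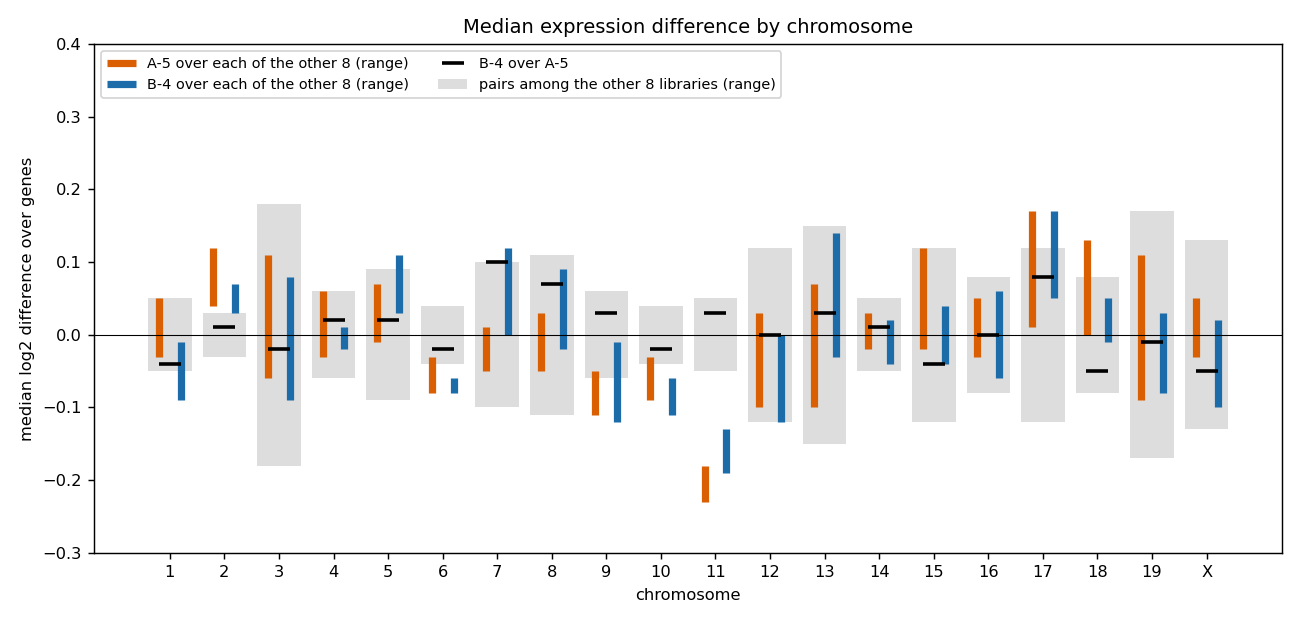
Median log2 difference over the genes of each chromosome (x axis): A-5 (orange) and B-4 (blue) over each of the other 8 libraries as a range, pairs among the other 8 as a grey range, and B-4 over A-5 as a black bar. Chromosome 11 is the plotted chromosome where both coloured ranges lie furthest below 0, -0.23 to -0.18 for A-5 and -0.19 to -0.13 for B-4.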

How the data were processed

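RNA was taken from MC3T3-E1 cultures once a set cell number was reached, and poly(A) libraries were built with a TruSeq kit and sequenced (1 library for each dose and day and 2 labelled untreated, though the labels' protocol gives n = 3). The labels do not say whether the kit marked strand. The deposited table held, per gene, counts and FPKM made by the authors. The submitters' processing notes name HISAT2 2.0.4 and GATK 3.2-2 without a role, and the build, annotation and counting program are not given in the sources used here. The table also holds the authors' own differential expression columns between libraries, which were not used.

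Counts were scaled by TMM (edgeR 4.0.16) over the 10 libraries, with a prior count of 2 on the log2 scale. Genes with 50 or more counts in A-5 or B-4 were compared, and no p-value was made. The limit was 2-fold, and each ratio has an exact 95% interval. The deposited FPKM, log2(FPKM + 1), served as an alternative. The scripts were tested on simulated counts. Ensembl IDs were matched to GENCODE (22022 of 22036) for position, length and type, and promoters came from RefSeq (GRCm38.p6), by symbol.

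The members and the 38 gene lists were chosen with earlier results of these data known. Genes named are the 5 largest differences in each division, sterol, interferon, glucocorticoid and matrix list, the 3 largest in the others, the 10 largest differences each way with a symbol, and a set of standing markers. Exceptions to a count, cell type markers, genes shared by both libraries and a few examples were chosen after their values were seen. Some genes that this rule names are not reported here.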

Additional observations from a re-analysis of the deposited data

How the results depend on the processing

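No paired analysis was possible because each side held 1 library and the comparison gave no test. For the same reason no library could be left out. The numbers of genes over 2-fold higher and lower in B-4 (916 and 907) stayed within 1.5 times when library totals (801 and 1003), TMM on the 2 libraries alone (854 and 929), DESeq2 size factors (901 and 915), other prior counts, a minimum of 20 counts or Ensembl genes alone were used. Counting any gene with at least 1 count gave 3360 higher and 3354 lower, a minimum of 50 counts in both libraries gave 576 higher, and log2(FPKM + 1) gave 412 higher. A limit of 1.5-fold gave 2013 higher and 1740 lower, and 4-fold gave 215 and 363. On the FPKM scale the mitosis median was -2.7, the KEGG lysosome median 0.06 (0.08 with library totals) and the number of KEGG ECM-receptor genes higher 3 of 10. With any gene of at least 1 count, 21 chemokine and NF-kB genes were lower, 18 ECM-receptor genes higher and 23 ribosome genes higher. The FPKM scale damps low genes by its added 1, and the looser filter admits more genes. No list median past 2-fold and no named gene past 2-fold changed sign under any of these. Depth limits the genes with under 50 counts on both sides, and 1 library a side leaves the spread between cultures unmeasured.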
